A study of Mus musculus with 2 samples.

Results

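The cluster of miR-322 and miR-503 is a run of 7 miRNA genes on the mouse X chromosome, Mir322, Mir503, Mir351, Mir542, Mir450-2, Mir450-1 and Mir450b. Its members were chosen by gene symbol: the rows of both count tables whose Ensembl gene identifiers GENCODE M21 pairs with these symbols. All 7 were found among the 2202 miRNA gene rows. The counts come from microRNA-seq of the gastrocnemius, a calf muscle of mostly fast fibres, with 2 libraries labelled biological replicates 1 and 2 of 1 group. Both are from male B6CASTF1/J mice aged 25 days, the F1 offspring of a laboratory strain crossed with CAST, an inbred strain of wild origin, with no treatment named. The labels describe separate males but carry a single donor identifier, so the spread between the libraries may be technical. The series holds 1 age and 1 condition. The role of the cluster in muscle cell differentiation is therefore background here and is not something these samples compare.

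A miRNA gene is transcribed as a long primary transcript from which a hairpin is cut, and the hairpin yields a short mature miRNA from each of its arms, named 5p and 3p. The seed, bases 2 to 8 of the mature miRNA, guides it to messenger RNAs. In cultured mouse myoblasts, miR-322 (called miR-424 in humans) and miR-503 are known to rise as cells leave the cell cycle and to lower Cdc25a, a phosphatase that drives cell division. MiR-351 has been tied to myoblast proliferation and survival, and miR-542-3p, in human cells, to lower levels of survivin, an inhibitor of cell death. The roles of the miR-450 miRNAs in muscle are less well established.

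All 7 hairpins lie on the minus strand of chromosome X within 6353 bases (mm10, 53047997 to 53054349), and GENCODE M21 places no other gene over any of them. In the direction of transcription Mir322 (ENSMUSG00000065418.1, 53054255 to 53054349) comes first. Mir503 (ENSMUSG00000076122.1, 53053984 to 53054054) follows after a gap of 200 bases and Mir351 (ENSMUSG00000065503.1, 53053255 to 53053353) after a further 630. A gap of 3767 bases, which holds the lincRNA gene Gm28730 on the same strand, separates these 3 from Mir542 (ENSMUSG00000076140.1, 53049403 to 53049487). The miR-450 genes end the cluster within 371 bases: Mir450-2 (ENSMUSG00000076399.1, 53048299 to 53048367), Mir450-1 (ENSMUSG00000065486.1, 53048154 to 53048244) and Mir450b (ENSMUSG00000076050.1, 53047997 to 53048078). The non-coding gene C430049B03Rik ends 696 bases upstream of Mir322 on the same strand.

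The mature arms below, from RefSeq (GRCm38.p6, chromosome X, minus strand, written 5′ to 3′), show which members share a seed. The seed is in capitals. RefSeq lists arms for all 7 genes.
miR-322-5p: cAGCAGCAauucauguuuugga
miR-503-5p: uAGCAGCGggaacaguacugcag
miR-351-5p: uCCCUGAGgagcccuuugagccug
miR-542-5p: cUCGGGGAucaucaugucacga
miR-542-3p: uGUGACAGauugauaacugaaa
miR-450a-5p: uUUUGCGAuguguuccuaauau
miR-450a-2-3p: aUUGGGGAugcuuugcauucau
miR-450a-1-3p: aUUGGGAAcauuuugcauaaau
miR-450b-3p: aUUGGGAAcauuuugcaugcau

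MiR-322-5p and miR-503-5p share bases 2 to 7 and differ at the last base of the seed. MiR-351-5p carries the seed of the miR-125 family instead. The 3p arms of Mir450-1 and Mir450b have the same seed and are identical over their first 18 bases. MiR-450a-5p is made by both Mir450-1 and Mir450-2, and its exact sequence occurs in 2 annotated miRNA hairpins. Each of the other 12 distinct arms of the cluster occurs in 1. The cluster therefore holds several seeds, 12 in all over 13 distinct arms.

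The hairpins of Mir322 and of the miR-450a genes are shown next because the counts are per hairpin and because repeated sequence bears on which reads were counted. In Mir322 the capitals mark the 5p and 3p arms, and in the miR-450a hairpins they mark the longest stretch that both have in common (GENCODE M21, GRCm38, minus strand).
Mir322: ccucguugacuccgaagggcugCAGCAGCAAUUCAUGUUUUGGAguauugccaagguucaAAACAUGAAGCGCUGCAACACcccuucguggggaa
Mir450-2: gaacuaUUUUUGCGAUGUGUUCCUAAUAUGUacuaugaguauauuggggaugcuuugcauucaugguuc
Mir450-1: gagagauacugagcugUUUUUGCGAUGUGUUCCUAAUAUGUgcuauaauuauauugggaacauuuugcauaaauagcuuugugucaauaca

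The shared stretch of Mir450-1 and Mir450-2 is 25 bases long and covers the whole of miR-450a-5p. Mir450b shares up to 19 bases with Mir450-1. For Mir322, Mir503, Mir351 and Mir542 the longest stretch found in any other annotated miRNA hairpin, on either strand, is 11 to 13 bases. These 4 hairpins are 50.5% to 54.9% G or C, against 30.5% to 36.2% for the miR-450 hairpins. Their predicted minimum folding energies run from -42.9 to -37.3 kcal/mol, and those of the miR-450 hairpins from -41.0 to -26.5 kcal/mol.

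The gene rows summed to 2028332 counts for replicate 2 and 1491341 for replicate 1, and CPM values are counts per 1000000 of these totals. No gene row holds reads with several matching loci, which were 71.8% of the reads of replicate 2 and 69.8% of those of replicate 1. A level below is therefore one of reads placed at a single locus, summed over both arms. A read stands for a whole mature miRNA, so CPM was not divided by hairpin length. The muscle miRNA Mir206 stood at rank 7 of all genes by mean CPM. The endothelial gene Mir126a (rank 2) and the smooth muscle and pericyte gene Mir143 (rank 4) stood above it. The 9 striated muscle genes together had 48416 CPM (replicate 2) and 55093 CPM (replicate 1), of which Mir206 alone made up 46543 CPM and 53367 CPM. Of these 9 genes, 6 share a stretch of at least 20 bases, on either strand, with another miRNA gene, and Mir206 does not. The neuronal genes of the Mir9 and Mir124a families, each of which shares a stretch of at least 20 bases with another miRNA gene, had no counts for 5 of 6 genes. No cluster member had a count on the opposite strand in either library, which leaves room for at most 3 counts there, or 1.48 CPM (replicate 2) and 2.01 CPM (replicate 1).

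The cluster held 30398 counts in replicate 2 and 19223 in replicate 1. That is 1.50% of gene counts in replicate 2 (exact 95% interval 1.48 to 1.52) and 1.29% in replicate 1 (1.27 to 1.31), a mean of 1.39 ± 0.148% (SD, n = 2). Most of it was Mir322. The levels of the members spanned from a mean of 12194 CPM for Mir322 to a mean of 6.38 CPM for Mir450-2, and their order was the same in both libraries.

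Mir322, the most abundant member and the source of the cell-cycle miRNA miR-322-5p, had 27397 counts in replicate 2 and 16228 in replicate 1. These correspond to 13507 and 10881 CPM, a mean of 12194 ± 1857 CPM (SD, n = 2), which ranked 18 of 2202 genes. Mir322 took 90.1% of the cluster's counts in replicate 2 (exact 95% interval 89.8 to 90.5) and 84.4% in replicate 1 (83.9 to 84.9). Both libraries thus placed it far above every other member.

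Mir503, which lies directly downstream of Mir322 and has a closely related seed, had 147 counts in replicate 2 and 109 in replicate 1. Its level was 72.5 CPM in replicate 2 and 73.1 CPM in replicate 1, a mean of 72.8 ± 0.435 CPM (SD, n = 2), and rank 174. The 2 hairpins that give the cluster its name thus lay 200 bases apart and differed by a factor of 186 in replicate 2 and 149 in replicate 1.

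Mir351, whose 5p arm has the miR-125 seed, was the second member by level. It had 1805 counts in replicate 2 and 2004 in replicate 1, or 890 and 1344 CPM, with a mean of 1117 ± 321 CPM (SD, n = 2) and rank 59. Unlike Mir322, it had the lower CPM in replicate 2. Mir322 exceeded Mir351 by a factor of 15.2 in replicate 2 and 8.10 in replicate 1.

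Mir542, the source of miR-542-3p, had 738 counts in replicate 2 and 665 in replicate 1. This was 364 CPM in replicate 2 and 446 CPM in replicate 1, a mean of 405 ± 58.0 CPM (SD, n = 2) and rank 92. It took 2.43% of the cluster's counts in replicate 2 and 3.46% in replicate 1.

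Among the miR-450 genes, Mir450b was the highest, with 263 counts in replicate 2 and 197 in replicate 1, or 130 and 132 CPM (mean 131 ± 1.72 CPM, SD, n = 2). Mir450-1 had 33 counts in replicate 2 and 12 in replicate 1, a mean of 12.2 ± 5.81 CPM (SD, n = 2). Mir450-2 had 15 counts in replicate 2 and 8 in replicate 1, a mean of 6.38 ± 1.44 CPM (SD, n = 2). The 2 genes that make miR-450a-5p were thus the lowest members in both libraries, and they are the 2 members that share a stretch of at least 20 bases with another miRNA gene. A low output of these hairpins cannot be told apart from reads left out because they fit both loci.

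**Figure D1:**
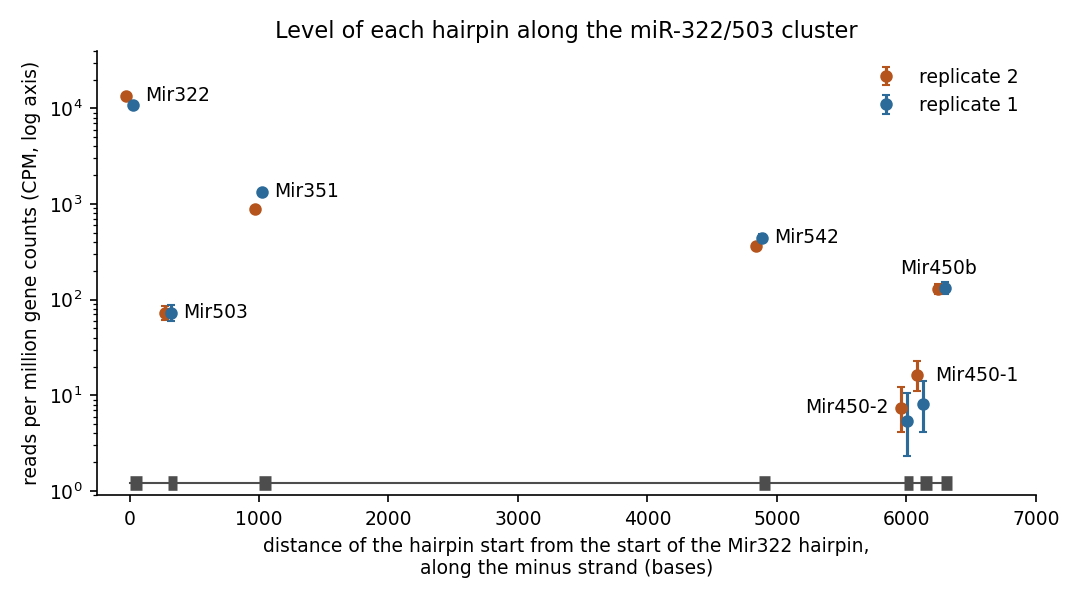
Level of each cluster hairpin in CPM (log axis) against the distance of its start from the start of the Mir322 hairpin along the minus strand, with the hairpins drawn to scale as dark blocks on the line at the bottom. Points are the 2 libraries, set slightly apart, and bars are exact 95% Poisson intervals; Mir322 stands at 13507 and 10881 CPM, and levels do not fall steadily with distance, since Mir503 lies below the more distant Mir351 and Mir542.

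By level the order was Mir322, Mir351, Mir542, Mir450b, Mir503, Mir450-1 and Mir450-2. The counting intervals of neighbours in this order did not overlap in either library, except those of Mir450-1 and Mir450-2, which overlapped in both. The means of these 2 genes also differed by less than the SD of Mir450-1. The order of level was not the order along the chromosome. Mir503 is the second hairpin of the cluster but had level 5 of 7, and Mir450b is the last hairpin but had level 4 of 7.

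**Figure D2:**
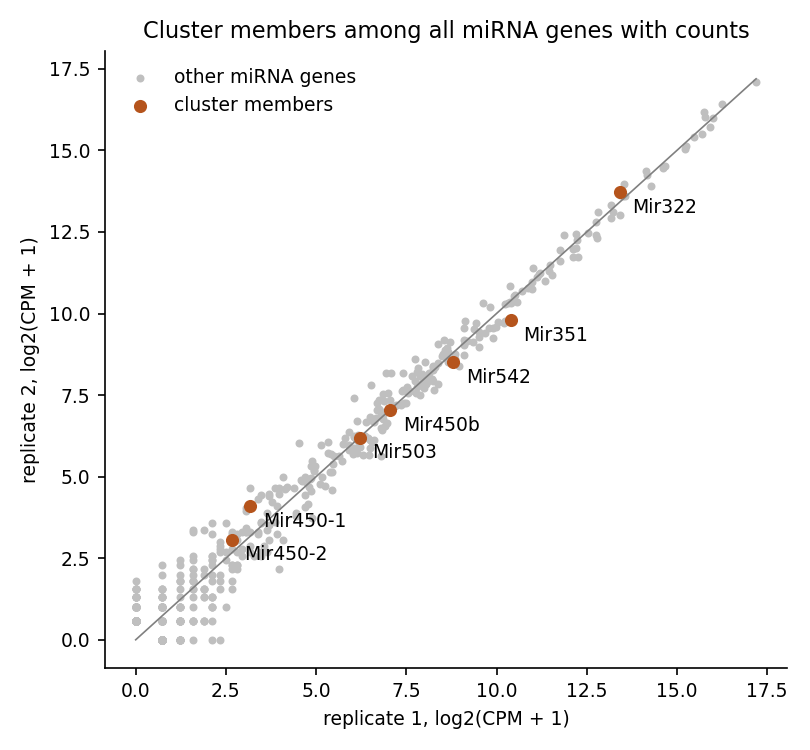
Each of the 570 miRNA genes with counts, drawn by log2(CPM + 1) in replicate 1 (horizontal) and replicate 2 (vertical), with the 7 cluster members marked and the line of equal values. Mir351 and Mir542 lie below the line and Mir322 above it.

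The libraries were then compared for each gene by a two-sided exact binomial test, with the libraries scaled by TMM and adjusted over the 313 genes with at least 10 summed counts. This test covers counting error only and compares 2 libraries of 1 group, not conditions. By it Mir322 was higher in replicate 2 and Mir351 and Mir542 were lower, while Mir503, Mir450-2, Mir450-1 and Mir450b did not pass. Of the 7 members 1 was therefore higher, beside 19.8% of all tested genes, and 2 were lower, beside 18.5%. The members' median log2 ratio was -0.0018, against 0.05 over all tested genes.

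Mir322 had a log2 ratio of replicate 2 over replicate 1 of 0.32 (0.29 to 0.35 as exact 95% interval, binomial test, adjusted p = 4.64e-113). Mir351 had a log2 ratio of -0.58 (-0.68 to -0.49, binomial test, adjusted p = 1.33e-34) and Mir542 one of -0.28 (-0.44 to -0.13, binomial test, adjusted p = 0.000942). Ranked by the size of the difference among the 179 genes that reached 100 counts in both libraries, Mir351 stood at 18, Mir322 at 64 and Mir542 at 72. Mir450b, at -0.02 (-0.29 to 0.26), stood at 169, and Mir503, at -0.0018 (-0.37 to 0.37), at 179, the smallest difference of that set. Mir450-1 had a log2 ratio of 1.03 (0.04 to 2.11, binomial test, adjusted p = 0.0810) and Mir450-2 one of 0.47 (-0.86 to 1.92). Both rest on few counts and have wide intervals, and neither passed after adjustment. With a spread between libraries of 18.0% (biological coefficient of variation) added to counting error, none of the 7 members passed (edgeR exact negative binomial test, adjusted p = 1 each). That spread comes from the same 2 libraries and weighs against passing any gene: 0 of 313 passed, and 15 had an unadjusted p under 0.05.

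**Figure D3:**
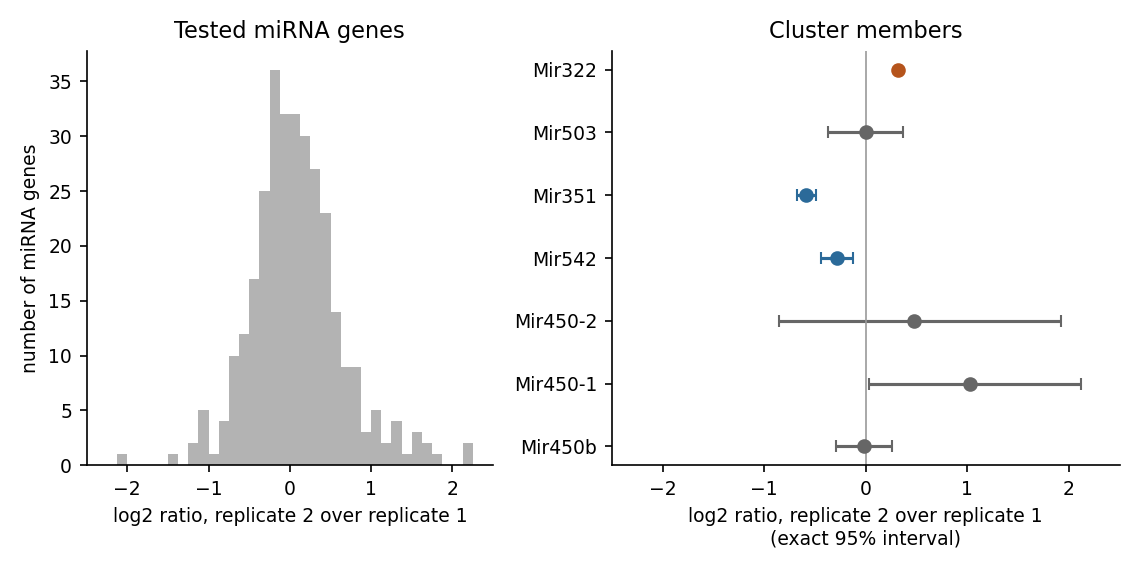
Left, log2 ratios of replicate 2 over replicate 1 for all 313 tested miRNA genes; right, the same ratio for each cluster member with its exact 95% interval, in orange where higher and blue where lower in replicate 2 by the binomial test and in grey otherwise. Mir322 sits at 0.32 and Mir351 at -0.58, and the miR-450a genes have the widest intervals.

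Because the hairpins share a strand and lie close together, the make-up of the cluster's reads was also compared, which needs no scaling between libraries. Without Mir322, the other 6 members summed to 3001 counts in replicate 2 and 2995 in replicate 1, although replicate 2 held 1.36 times the gene counts. The log2 ratio of this sum was -0.43 (exact 95% interval -0.50 to -0.36). Most of the sum was Mir351, with 1805 of the 3001 counts in replicate 2 and 2004 of the 2995 in replicate 1. The sum therefore does not stand for each of the 6, of which only Mir351 and Mir542 passed the test on their own. The odds that a cluster read belonged to Mir322 were 1.68 times as high in replicate 2 as in replicate 1 (exact 95% interval 1.60 to 1.78). The odds ratio was 0.542 (0.507 to 0.580) for Mir351 and 0.694 (0.623 to 0.774) for Mir542. For Mir503 it was 0.852 (0.660 to 1.10), for Mir450b 0.843 (0.697 to 1.02), for Mir450-1 1.74 (0.875 to 3.70) and for Mir450-2 1.19 (0.472 to 3.23). In 3 of 7 members the interval thus left out 1. Odds ratios within 1 cluster are tied to each other, since reads of Mir322 enter all of them. With Mir322 left out of the sums, Mir351 still had an odds ratio below 1, at 0.746 (0.671 to 0.831). That of Mir542 turned to 1.14 (1.01 to 1.29), of Mir503 to 1.36 (1.05 to 1.77) and of Mir450b to 1.36 (1.12 to 1.66), and that of Mir450-1 was 2.76 (1.39 to 5.89). These odds ratios are tied to Mir351 in turn, which made up most of the sums without Mir322. The log2 ratios of the genes themselves were -0.28 for Mir542, -0.0018 for Mir503, -0.02 for Mir450b and 1.03 for Mir450-1. Mir351 thus took a smaller fraction of the cluster's reads in replicate 2, beyond counting error, with Mir322 in the sums or without it.

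**Figure D4:**
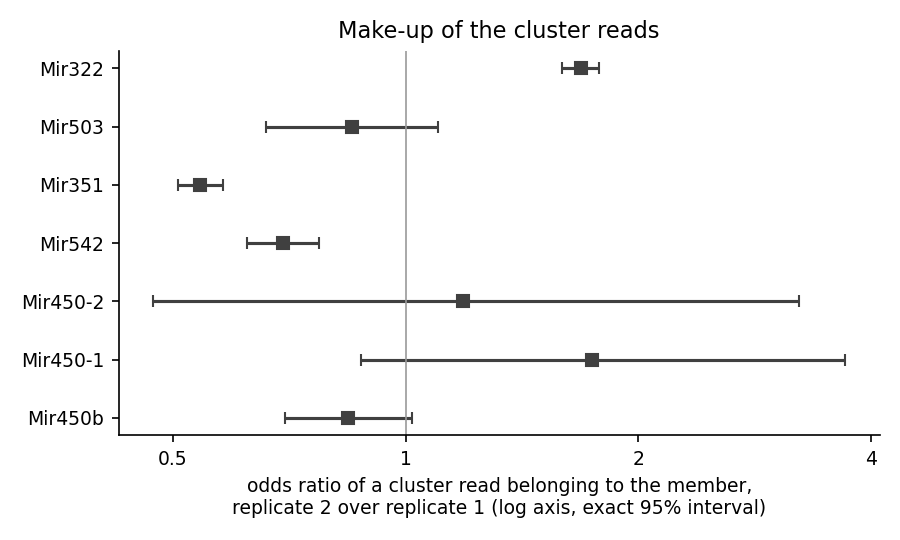
Odds ratio of a cluster read belonging to each member, replicate 2 over replicate 1 (log axis), with exact 95% intervals. Mir322 lies at 1.68, Mir351 at 0.542 and Mir542 at 0.694, and the intervals of the other 4 members cross 1.

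Some markers of other cells of muscle also differed between the libraries by the binomial test, which covers counting error only. By this test 19.8% of all tested genes were higher in replicate 2 and 18.5% lower. With the spread between libraries added, 0 of 313 genes passed, so none of these markers did. The smooth muscle and pericyte genes Mir143 and Mir145a together had 78690 CPM in replicate 2 and 58854 CPM in replicate 1, and both of 2 were higher in replicate 2 (binomial test). The endothelial gene Mir126a had 87525 CPM in replicate 2 and 78275 CPM in replicate 1 and was higher. The 5 fibroblast genes together had 13078 CPM in replicate 2 and 11500 CPM in replicate 1, with 2 higher and 1 lower of 4 tested. Of these sums Mir21a alone made up 12583 CPM and 10894 CPM. Mir21a and Mir199b were higher and Mir214 was lower, so the sum does not stand for each of these genes. Of the 9 striated muscle genes, 8 were tested, 2 were higher and 3 lower. Those higher were Mir208b (log2 ratio 1.31) and Mir499 (0.69). Those lower were Mir206 (-0.19), Mir1a-2 (-0.20) and Mir486 (-0.27). The 4 leukocyte genes together had 2294 CPM in replicate 2 and 2665 CPM in replicate 1, with 2 higher and 2 lower. The erythroid genes Mir451a and Mir144 summed to 355 and 174 CPM, and both were higher. The liver gene Mir122 had 23 counts in replicate 2 and 20 in replicate 1. The part of these cells in the differences of Mir322, Mir351 and Mir542 was not tested. In bulk tissue fewer cells of a type and less RNA per cell cannot be told apart.

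The seed of miR-322-5p places Mir322 with the miR-15/16 family, which is known for restraining the cell cycle. The most abundant relatives by mean CPM are shown to compare with the arms given above. RefSeq places them on chromosome 11 (miR-195a-5p, miR-497a-5p), chromosome 14 (miR-15a-5p, and miR-16-5p from Mir16-1), chromosome 3 (miR-16-5p from Mir16-2) and chromosome 17 (miR-125a-5p, which carries the seed of miR-351-5p). Seeds are in capitals.
miR-195a-5p: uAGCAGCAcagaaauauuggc
miR-15a-5p: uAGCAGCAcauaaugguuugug
miR-16-5p: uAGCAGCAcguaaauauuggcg
miR-497a-5p: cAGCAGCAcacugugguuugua
miR-125a-5p: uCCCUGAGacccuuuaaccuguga

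Of the 10 other genes with the full seed of miR-322-5p, 6 had counts in both libraries and 4 had none in either (Mir195b, Mir6342, Mir6353 and Mir6419). These 6 together had 4339 CPM (replicate 2) and 4346 CPM (replicate 1). Mir322 and Mir503 together had 13580 CPM in replicate 2 and 10955 CPM in replicate 1. Thus the cluster held 75.8% of the counts of the group that shares bases 2 to 7 of this seed in replicate 2 and 71.6% in replicate 1, a mean of 73.7 ± 2.96% (SD, n = 2). Mir503 contributed little to that, at a lower mean CPM than each of the 6 relatives with counts. The counts sum both arms of each hairpin, and in Mir322 and Mir503 only the 5p arm has the shared seed bases. These percentages are therefore of hairpin counts, and the part of them that carries the seed was not measured.

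The highest relative was Mir195a, with 4043 counts in replicate 2 and 3010 in replicate 1, a mean of 2006 ± 17.7 CPM (SD, n = 2). Mir15a followed at 648 ± 143 CPM, Mir16-1 at 603 ± 67.4 CPM and Mir497 at 562 ± 28.1 CPM (SD, n = 2). Among the 6, 1 was higher in replicate 2 (Mir15a, log2 ratio 0.46) and 2 were lower (Mir16-1 at -0.22 and Mir16-2 at -0.54) by the binomial test. By it 19.8% of all tested genes were higher and 18.5% lower. The median log2 ratio of the 6 was -0.07. Of the 10 genes, 3 share a stretch of at least 20 bases, on either strand, with another miRNA gene (Mir16-1, Mir16-2 and Mir497). The sequence of miR-16-5p occurs in 2 annotated hairpins and that of miR-497a-5p in 1. Reads that could be placed at more than 1 locus were not counted. The fraction of the seed group that belongs to the cluster thus holds for reads placed at 1 locus only, with both arms summed.

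The seed of miR-351-5p occurs in 5 other genes, the miR-125 genes among them, of which 3 had counts and 2 had none (Mir6367 and Mir6394). Mir125a had 3463 counts in replicate 2 and 3019 in replicate 1, a mean of 1866 ± 224 CPM (SD, n = 2). It was lower in replicate 2 by the binomial test (log2 ratio -0.24). Mir125b-1 averaged 216 ± 4.79 CPM and Mir125b-2 105 ± 7.44 CPM (SD, n = 2), and neither passed. The binomial test covers counting error only, and by it 19.8% of all tested genes were higher and 18.5% lower. With the spread between libraries added, 0 of 313 genes passed. The sequence of miR-125b-5p occurs in 2 annotated hairpins. Mir351 held 30.5% of the counts of this seed group in replicate 2 and 36.4% in replicate 1, a mean of 33.5 ± 4.22% (SD, n = 2). This fraction holds for reads placed at 1 locus only, and reads of miR-125b-5p that fit both of its hairpins were not counted. The counts also sum both arms of each hairpin, and in Mir351 only the 5p arm has this seed. The group total was 2030 CPM without Mir351 in replicate 2 and 2344 CPM in replicate 1.

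**Figure D5:**
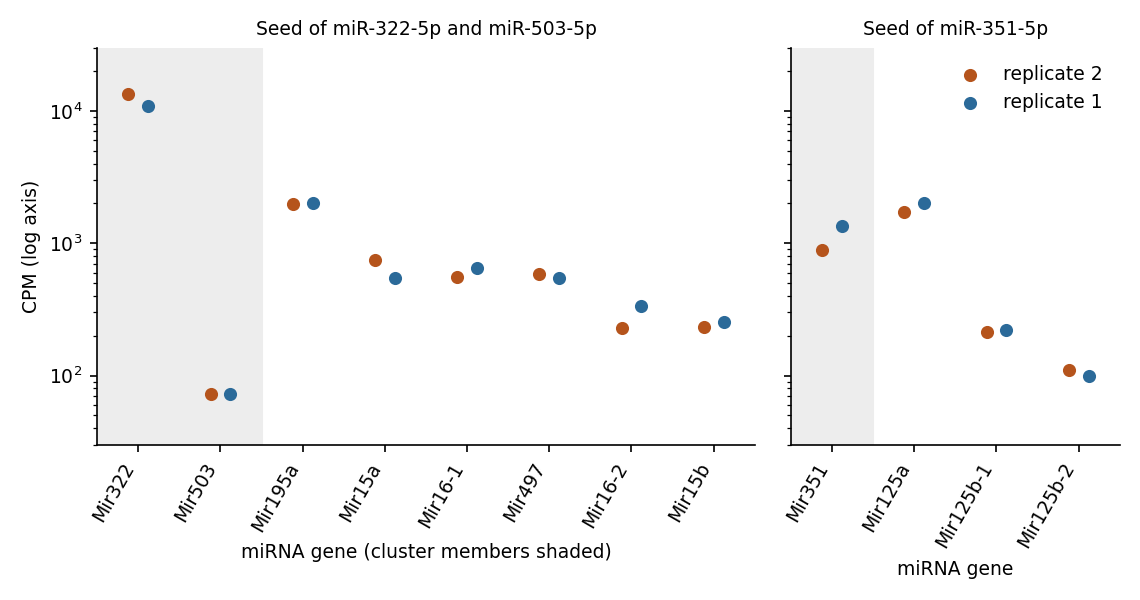
CPM (log axis) of the miRNA genes with counts that share the seed of miR-322-5p over bases 2 to 7 (left) or the seed of miR-351-5p (right), in replicate 2 and replicate 1; cluster members stand on a shaded ground. Mir322 lies above all its relatives and Mir503 below them, and Mir351 lies between Mir125a and the Mir125b genes. Levels are of reads placed at a single locus, summed over both arms, so reads that fit both Mir125b hairpins are left out.

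On the X chromosome, of which a male carries a single copy, the cluster held 52.4% of miRNA gene counts in replicate 2 and 46.3% in replicate 1, a mean of 49.3 ± 4.29% (SD, n = 2). The remaining counts came from 37 of the 135 other miRNA genes annotated there. The highest of them was the let-7 gene Mirlet7f-2 with 4425 ± 420 CPM, then Mir98, a second member of the let-7 family, with 2670 ± 211 CPM. Mir361 had 1805 ± 82.8 CPM, Mir532 1476 ± 41.2 CPM and Mir652 1310 ± 23.9 CPM (SD, n = 2 each). Mirlet7f-2 shares a stretch of at least 20 bases with another miRNA gene. The cluster's percentage of chromosome X counts thus holds for reads placed at 1 locus only, with both arms summed. Of the 26 other X-linked genes tested, 1 was higher in replicate 2 (the leukocyte gene Mir223), 6 were lower and 19 did not pass (binomial test). Over all tested genes 19.8% were higher and 18.5% lower. The median log2 ratio of the 26 genes was -0.01.

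The genes whose levels were most like those of Mir322 over the 2 libraries were Mir21a, Mir335 and Mirlet7d, out of 266 compared. The measure was the Euclidean distance of log2 CPM, which came to 0.10 for Mir21a, 0.17 for Mir335 and 0.18 for Mirlet7d. With 2 libraries this says only that the genes had close levels in each. Mir21a had 12583 CPM in replicate 2 and 10894 CPM in replicate 1, Mir335 12340 and 11683 CPM, and Mirlet7d 12514 and 12054 CPM.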

How the data were processed

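MicroRNA-seq counts of 2 gastrocnemius libraries were used. The authors deposited raw read counts per miRNA gene, without a header or normalization, and the deposited description of the files names mm10 and GENCODE M21. An aligner, its version and adapter trimming were not given in the sources used here. From the values, the 3 count columns hold unstranded counts, counts on the gene's own strand and counts on the other strand; those on the gene's own strand were used. The 4 summary rows stayed out of totals and tests, and gene counts were 20.6% of the reads of replicate 2 and 19.9% of those of replicate 1.

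CPM used gene totals. Log2 ratios used TMM effective library sizes (edgeR 4.0.16, R 4.3.3). The exact binomial test (scipy 1.17.1) ran across all genes with at least 10 summed counts, with Benjamini-Hochberg adjustment at 0.05. The step was tested on simulated counts with counting error only. That check holds no spread between libraries, so it gives no error rate for libraries that have one. A quasi-likelihood test was not run, since the design has 1 group. Odds ratios are conditional estimates from Fisher's exact test, given with 95% intervals and without p-values. DESeq2 1.42.0 size factors served as an alternative scaling. Folding energies are from ViennaRNA 2.7.2. Intervals and limits for a count of 0 (3 counts) cover only counting error, because reads copied by PCR are not separate molecules. The members and lists were chosen with earlier results of these data known.

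The genes named are the 7 members, up to 4 other genes with the highest mean CPM per seed group, the 5 highest other genes of chromosome X, the 3 genes nearest to Mir322 in level and the cell type markers. Mir16-2 and the seed relatives without counts fall outside that rule and were named after their values were seen. How reads from CAST alleles aligned was not analysed here.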

Additional observations from a re-analysis of the deposited data

How the results depend on the processing

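The calls for Mir322, Mir351 and Mir542 held with DESeq2 size factors, with total gene counts, with a filter of 1 count and in the column without regard to strand. With the edgeR exact negative binomial test, 0 members were higher and 0 lower in replicate 2, with the spread estimated from the same 2 libraries. In the column without regard to strand, the log2 ratios of Mir503 and Mir450b, neither of which passed, turned to 0.018 and 0.0035. Levels followed the denominator. In the column without regard to strand, whose gene total is smaller while the members' counts are the same, Mir322 had 16315 CPM and the cluster 1.86% of gene counts. On all reads, Mir322 had 2474 CPM, and with reads aligned to several loci in the denominator the cluster held 0.310%. Leaving out either replicate gave 10881 to 13507 CPM for Mir322 and 1.29% to 1.50% for the cluster, which are the values of single libraries. Without Mir322, 5 of 6 odds ratios had intervals that left out 1, and those of Mir503 (1.36), Mir542 (1.14) and Mir450b (1.36) changed direction. Mir351 made up most of the sums without Mir322, so these odds ratios are tied to it. With Mir450-1 and Mir450-2 left out instead, Mir322, Mir351 and Mir542 kept intervals that left out 1. No paired analysis was possible because the libraries form 1 group. Depth limits the precision for Mir450-1 and Mir450-2, with 33 counts or fewer in a library. The 5p and 3p arms are summed in these counts and were not analysed separately.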
